A study of Mus musculus with 36 samples.

Results

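The genes described here are 35 genes of protein folding and quality control in the endoplasmic reticulum (ER), taken as a named list of chaperones, disulfide enzymes, translocon subunits, degradation factors and components of the unfolded protein response. They are 35 of 21938 protein-coding genes in the GENCODE vM21 annotation of mouse build mm10 (GRCm38). Each was scored by ChIP-Seq peaks for 2 histone marks. H3K4me3 lies at the start sites of genes in use, and H3K27me3 is the mark that EZH2, the catalytic subunit of Polycomb repressive complex 2, places on silenced genes. A gene counted as marked where at least 1 bp of a peak lay within 3 kb, on either side, of any of its annotated transcription start sites (TSS), and its H3K4me3 width was that of the widest such peak.

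Whole pancreata came from 4 genotypes with 3 mice each, and both marks were profiled in every mouse, giving 24 peak lists. All mice were 2 to 4 months old, received tamoxifen by oral gavage and were taken 22 days later. WT mice are labelled as wild type, and the study's methods describe its controls as C57BL/6 mice or mice with the Mist1creERT allele alone, so which of these a WT mouse was is not known here. EZ mice are Mist1creERT/+ with EZH2ΔSET, in which the exons for the catalytic SET domain of EZH2 are deleted. KR mice are Mist1creERT/+ with a different Cre-dependent allele, and KE mice carry Mist1creERT/+, that allele and Ezh2ΔSET together. The Mist1 promoter drives the tamoxifen-inducible Cre in acinar cells, whereas the tissue assayed was the whole organ, so a change in the cells present and a change in chromatin within a cell cannot be told apart. The lists hold positions of peaks with no height or read count, and the depth of each library is unknown.

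Acinar cells of the pancreas make and export digestive enzymes in very large amounts, and the proteins they secrete enter the ER through the SEC61 channel, fold with the help of chaperones such as BiP and form disulfide bonds there. Proteins that fail to fold are drawn back out and degraded, a route called ER-associated degradation (ERAD). When unfolded proteins accumulate, 3 sensors in the ER membrane, IRE1 (Ern1), PERK (Eif2ak3) and ATF6, start the unfolded protein response, which slows translation and induces chaperone and ERAD genes. A known target sequence of that response is the ER stress response element (ERSE), in which CCAAT, bound by NF-Y, stands 9 bases from CCACG, bound by cleaved ATF6.

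The promoter sequences of these genes are shown first, because some of them carry an element of that response that the choice of peaks did not use. Of the 35 genes, 30 matched an entry among RefSeq promoters on GRCm38.p6, and Atf6, Derl1, Hyou1, Manf and Sec61a1 did not. In the 250 bases before the RefSeq start, searched on both strands, the ERSE as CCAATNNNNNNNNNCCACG was found at 10 of the 30 (33.3%), against 25 of all 16715 promoters (0.150%). The list was put together from known biology of the response, so this share describes the list and was not tested. Each site is printed on the strand of its gene with 5 bases on either side and the motif in capitals. A motif that begins with CGTGG is the element on the opposite strand.
Hspa5, chr2:34772020-34772048, plus strand: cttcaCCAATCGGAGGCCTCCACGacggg
Hsp90b1, chr10:86705528-86705556, minus strand: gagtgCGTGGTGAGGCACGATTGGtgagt
Calr, chr8:84847070-84847098, minus strand: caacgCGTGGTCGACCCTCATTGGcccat
Canx, chr11:50325795-50325823, minus strand: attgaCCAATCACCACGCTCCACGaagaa
Dnajc3, chr14:118937822-118937850, plus strand: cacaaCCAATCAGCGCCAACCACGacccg
Creld2, chr15:88819515-88819543, plus strand: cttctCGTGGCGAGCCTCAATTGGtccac
Pdia6, chr12:17266486-17266514, plus strand: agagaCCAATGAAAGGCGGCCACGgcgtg
Ero1lb, chr13:12565677-12565705, plus strand: ggcctCGTGGTCCCGCCTCATTGGccgcc
Syvn1, chr19:6046527-6046555, plus strand: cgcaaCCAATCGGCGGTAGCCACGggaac
Derl3, chr10:75893237-75893265, plus strand: tctacCGTGGGACTTCCCCATTGGctagc

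The site at Hspa5 began 65 bases before the RefSeq start, which lies 120 bases into the gene as GENCODE annotates it, that at Syvn1 44 bases and that at Ero1lb 201 bases before it. Hsp90b1 held 2 of these elements in opposite orientation, and its promoter is therefore shown in a longer run with both in capitals. In the 250 bases searched, Herpud1 held no whole ERSE but held the related ERSE-II, searched as ATTGGNCCACG. The ERSE-II was found at 7 of all 16715 promoters (0.0419%) and at Herpud1 begins 52 bases before the RefSeq start. The last bases before that start are CCAAT, 9 bases and CCAC, and an ERSE that crosses the start was not searched for.
Hsp90b1, chr10:86705510-86705669, minus strand: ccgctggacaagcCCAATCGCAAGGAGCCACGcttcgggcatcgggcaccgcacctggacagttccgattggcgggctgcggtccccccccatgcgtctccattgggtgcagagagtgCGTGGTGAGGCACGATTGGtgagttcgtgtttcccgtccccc
Herpud1, chr8:94386269-94386428, plus strand: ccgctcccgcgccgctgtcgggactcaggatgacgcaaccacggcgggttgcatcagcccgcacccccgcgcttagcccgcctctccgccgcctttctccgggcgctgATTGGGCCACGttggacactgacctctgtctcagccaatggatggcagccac

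The unfolded protein response element TGACGTGG was found at none of the 30 promoters and at 0.592% of all of them. TGATGNAAT, an element bound by ATF4 with a C/EBP partner, was likewise found at none of the 30 and at 0.694% of all. The other 15 genes with an ERSE were outside the ER lists used here. Among them, Alg12 starts beside Creld2 and shares its promoter. Of all 25 genes, 14 had H3K4me3 in all 12 mice. The 10 members with an ERSE in the bases searched had a median of mean H3K4me3 widths of 4872.8 bp (3501 to 10724 bp). The 20 matched members without one there had 5499.1 bp (1975 to 18723 bp), so the ranges overlapped almost throughout. The promoters were rich in CpG. Their median ratio of observed to expected CpG was 0.839, against 0.563 over all promoters, and Pdia2, at 0.111, was the lowest.

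All 35 genes had an H3K4me3 peak in all 12 mice, where 56.9% of protein-coding genes did. No genotype lacked the mark at any of them. The start of the gene itself lay inside the peak in 12 of 12 mice for every gene. The 12 acinar markers examined, among them Cpa1, Prss2 and Bhlha15 (the gene of MIST1), also had H3K4me3 in all 12 mice, while 5 of 6 islet hormone genes had it in none. Duct markers had it in all 12 mice for 3 of 6 genes, stromal and endothelial markers for 2 of 6, and leukocyte markers for 1 of 6.

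WT mouse 2 stood apart from the other mice before any comparison of genotypes. It had 17399 H3K4me3 peaks, whereas the other mice had 21814 to 26080. Its peaks at the 35 genes were the narrowest of the 12 mice for 30 of them, as they were for 40.9% of all genes marked in every mouse. It also had H3K27me3 within 3 kb of a TSS at 24.6% of protein-coding genes, against 10.6% to 15.8% in the other mice. Among the leukocyte markers, Cd68 had H3K4me3 in all 12 mice and Adgre1 in none, while Cd3e had it in WT mouse 2 and KR mouse 1 alone. Ptprc, the gene of CD45, had a peak of 11083 bp in WT mouse 2, 6379 bp in KR mouse 1, 3510 bp in KE mouse 1 and 501 bp in EZ mouse 2, and Laptm5 had one of 4554, 5539, 1475 and 501 bp in the same mice. The part of such cells in the widths below was not tested. The counts and medians of width in each comparison with WT are also given without WT mouse 2.

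The 35 genes had wide H3K4me3 peaks. Their median width was 5540, 3898 and 5773 bp in WT mice 1, 2 and 3, 5730, 5469 and 5970 bp in the EZ mice, 4841, 5422 and 5311 bp in the KR mice, and 5103, 5935 and 6068 bp in the KE mice. The median over all marked protein-coding genes ranged only from 2121 to 2309 bp. The ratio of the medians was lowest in WT mouse 2, at 1.84, and ranged from 2.16 to 2.70 in the other mice. Ranked among all marked genes of the same mouse, the median member stood at the 91.0th percentile in WT mouse 2 and between the 93.6th and 96.4th percentile elsewhere. In WT mouse 2, 15 of the 35 had a peak over 4 kb, where 8.26% of marked genes did, and in the other mice 26 to 31 of them did, where 10.9% to 14.3% of marked genes did. The WT mice overlapped every other genotype in these measures, but WT mice 1 and 3 on their own lay above all 3 KR mice in median width, ratio and percentile. The median widths in bp of all 3 KR mice lay below those of all 3 EZ mice, whereas the ratio (2.16, 2.44 and 2.48 in KR, 2.41 to 2.66 in EZ) and the percentile (93.6, 95.2 and 95.6 in KR, 95.1 to 96.4 in EZ) overlapped.

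**Figure D1:**
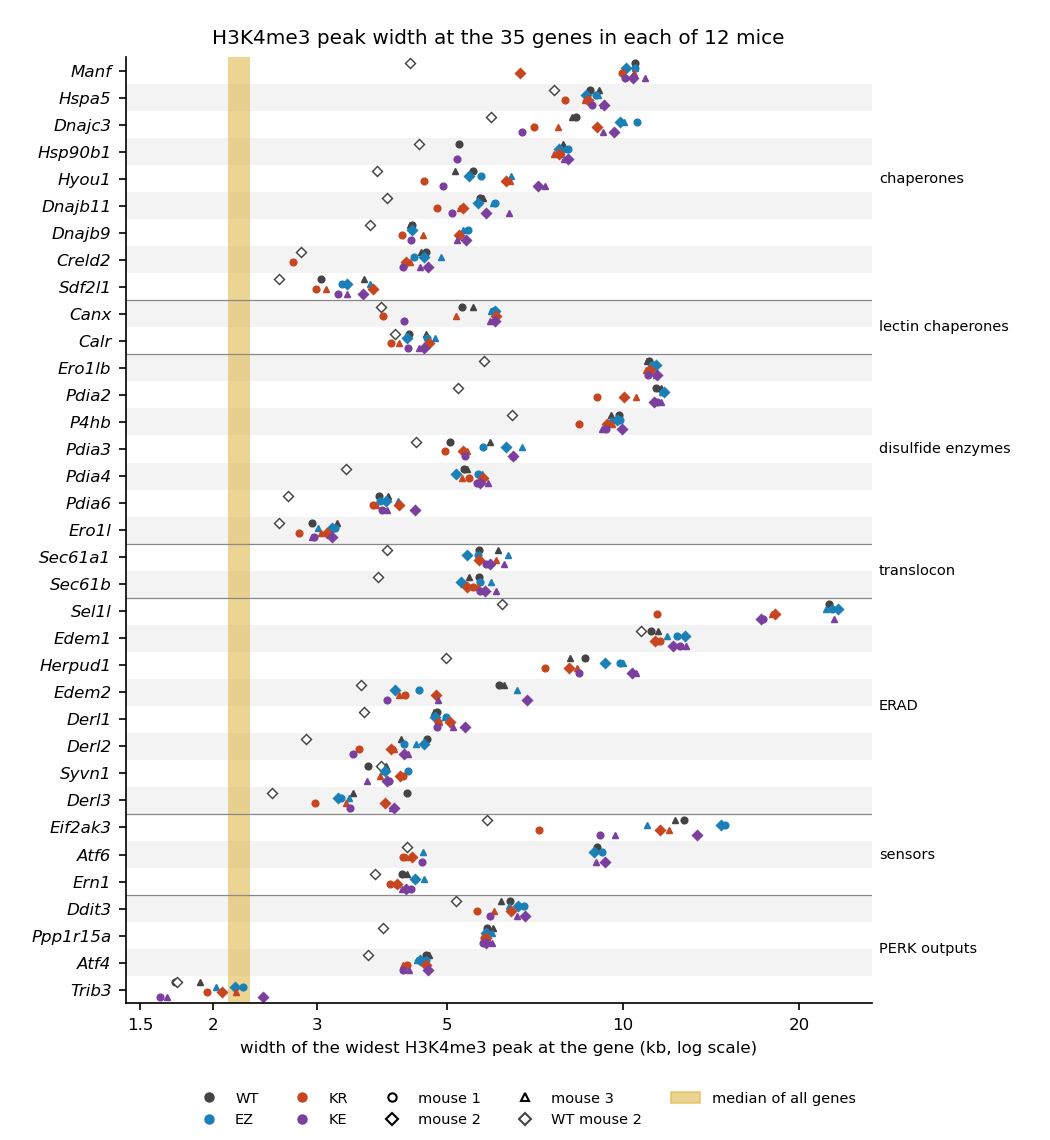
Width of the widest H3K4me3 peak at each of the 35 genes (horizontal axis, kb, log scale) in every mouse, grouped by role and coloured by genotype, with the marker shape giving the mouse number; the yellow band is the range over mice of the median of all marked protein-coding genes. Nearly all points lie right of the band, Trib3 lies around it, and WT mouse 2 (open diamonds) is the lowest point at 30 genes.

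Among the chaperones, mean widths over 12 mice ran from 3312 bp at Sdf2l1, a partner of ER DNAJ proteins, to 9571 bp at Manf, a secreted ER protein induced by stress. Hspa5 (ENSMUSG00000026864, chr2:34771970-34777547, plus strand) encodes BiP, the ER HSP70 that binds nascent chains and holds the 3 sensors inactive. Its widths were 8771, 7632 and 9112 bp in the WT mice, 9010, 8641 and 9059 bp in the EZ mice, 7977, 8722 and 8618 bp in the KR mice and 8853, 9287 and 9231 bp in the KE mice, so that the lowest and the highest of the 11 mice other than WT mouse 2 were a factor of 1.16 apart. The lectin chaperones Calr (mean 4405 bp) and Canx (5340 bp), which hold glycoproteins during folding, lay lower than Hspa5. Hsp90b1, the ER HSP90 GRP94, had a mean of 7153 bp, and its peak also covered the start of Ttc41.

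Mean widths of the disulfide enzymes ran from 3025 to 10724 bp. Ero1lb (ENSMUSG00000057069, chr13:12565874-12611396, plus strand), an oxidase that recharges protein disulfide isomerases and is prominent in secretory cells, had the higher of these means. Its widths were 11073, 5797 and 11007 bp in the WT mice, 11258, 11397 and 11125 bp in the EZ mice, 11133, 11108 and 10937 bp in the KR mice and 11037, 11435 and 11385 bp in the KE mice, and without WT mouse 2 it was among the most even of the 35. Its paralogue Ero1l had a mean of 3025 bp and was narrower in every mouse. Pdia2 (ENSMUSG00000024184, chr17:26195999-26199087, minus strand), the pancreatic disulfide isomerase, had a mean of 10609 bp, of which the larger share lay upstream of the gene and reached over the start of Rgs11 in 11 mice. P4hb, the classical protein disulfide isomerase, had 9252 bp, Pdia3 5692 bp, Pdia4 5374 bp and Pdia6 3862 bp.

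The translocon genes Sec61a1 (mean 5722 bp) and Sec61b (5508 bp) were near the middle of the list. ERAD genes held the widest peak of all. Sel1l (ENSMUSG00000020964, chr12:91806043-91849157, minus strand), the adaptor of the ERAD ubiquitin ligase, had 22468, 6209 and 22544 bp in the WT mice, 22791, 23259 and 22253 bp in the EZ mice, 11453, 18156 and 17997 bp in the KR mice and 17363, 17211 and 22969 bp in the KE mice. Its partner Syvn1, the ligase HRD1, had a mean of only 3950 bp and was the gene least reduced in WT mouse 2, at 0.977 of the mean of the other 11 mice, where Sel1l was at 0.313. Edem1, a mannosidase-like protein that hands misfolded glycoproteins to degradation, had the second widest mean at 11861 bp, and Herpud1, which organises the ligase complex, had 8676 bp. Derl1, Derl2 and Derl3, the derlins of the same complex, had 4833, 4045 and 3501 bp.

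Of the sensors, Eif2ak3 (ENSMUSG00000031668, chr6:70844515-70905245, plus strand) had the third widest mean of the list at 11202 bp, Atf6 had 6728 bp and Ern1 4225 bp. The PERK outputs were narrower than Eif2ak3, the gene of PERK itself. Ddit3, which encodes CHOP, had 6251 bp, Ppp1r15a, the phosphatase subunit GADD34 that restores translation, 5705 bp, and Atf4, the transcription factor made when translation is slowed, 4402 bp. Trib3 (ENSMUSG00000032715, chr2:152337422-152344032, minus strand), a pseudokinase induced by ATF4 and CHOP, had the narrowest mean, 1975 bp. Its widths were 1718, 1733 and 1893 bp in the WT mice, 2247, 2174 and 2019 bp in the EZ mice, 1951, 2065 and 2181 bp in the KR mice and 1620, 2434 and 1663 bp in the KE mice, and its median percentile among all marked genes was 39.6, the only member below the middle. The next 4 in order from the narrow end were Ero1l, Sdf2l1, Derl3 and Pdia6, and neighbours in this order overlapped across mice. Ero1l was 2950, 2586 and 3254 bp in the WT mice, 3226, 3189 and 3011 bp in the EZ mice, 2796, 3127 and 3055 bp in the KR mice and 2968, 3190 and 2951 bp in the KE mice. Sdf2l1 was 3049, 2583 and 3621 bp in the WT mice, 3313, 3378 and 3700 bp in the EZ mice, 2993, 3743 and 3117 bp in the KR mice and 3269, 3605 and 3379 bp in the KE mice. At both the 4 genotypes overlapped, and WT mouse 2 was the lowest mouse. Derl3 was 4281, 2517 and 3455 bp in the WT mice, 3297, 3264 and 3406 bp in the EZ mice, 2986, 3925 and 3365 bp in the KR mice and 3417, 4059 and 4040 bp in the KE mice, with the highest value in WT mouse 1 and the lowest in WT mouse 2. Pdia6 was 3834, 2681 and 3968 bp in the WT mice, 3854, 3938 and 4139 bp in the EZ mice, 3745, 4145 and 3796 bp in the KR mice and 3873, 4418 and 3959 bp in the KE mice. Pdia6 was wider than Ero1l in all 12 mice, and without WT mouse 2 it spanned 3745 to 4418 bp and Ero1l 2796 to 3254 bp.

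By the median over mice, the peaks reached further into the gene than upstream of it at 33 of 35 genes, Pdia2 and Ddit3 being the exceptions. The medians were close at Dnajb11, 2838 bp into the gene and 2730.5 bp upstream, and some mice there had the reverse. At Edem1 the peak reached a median of 10011.5 bp into the gene and 1739 bp upstream, and at Ero1lb 9832 bp and 1294 bp. At Derl3 it reached only 302.5 bp upstream. The whole gene body was under the peak, by the median over mice, at Hspa5, Sdf2l1, Pdia2, Derl3, Atf4 and Ppp1r15a, all short genes. Neighbouring genes also start under several of these peaks, such as Alg12 at Creld2, Tbccd1 at Dnajb11, Catsper2 at Pdia3, Alg2 at Sec61b, Mis12 at Derl2, Mbd6 at Ddit3 and Plekha4 at Ppp1r15a in all 12 mice, and the width there cannot be given to either gene alone.

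**Figure D2:**
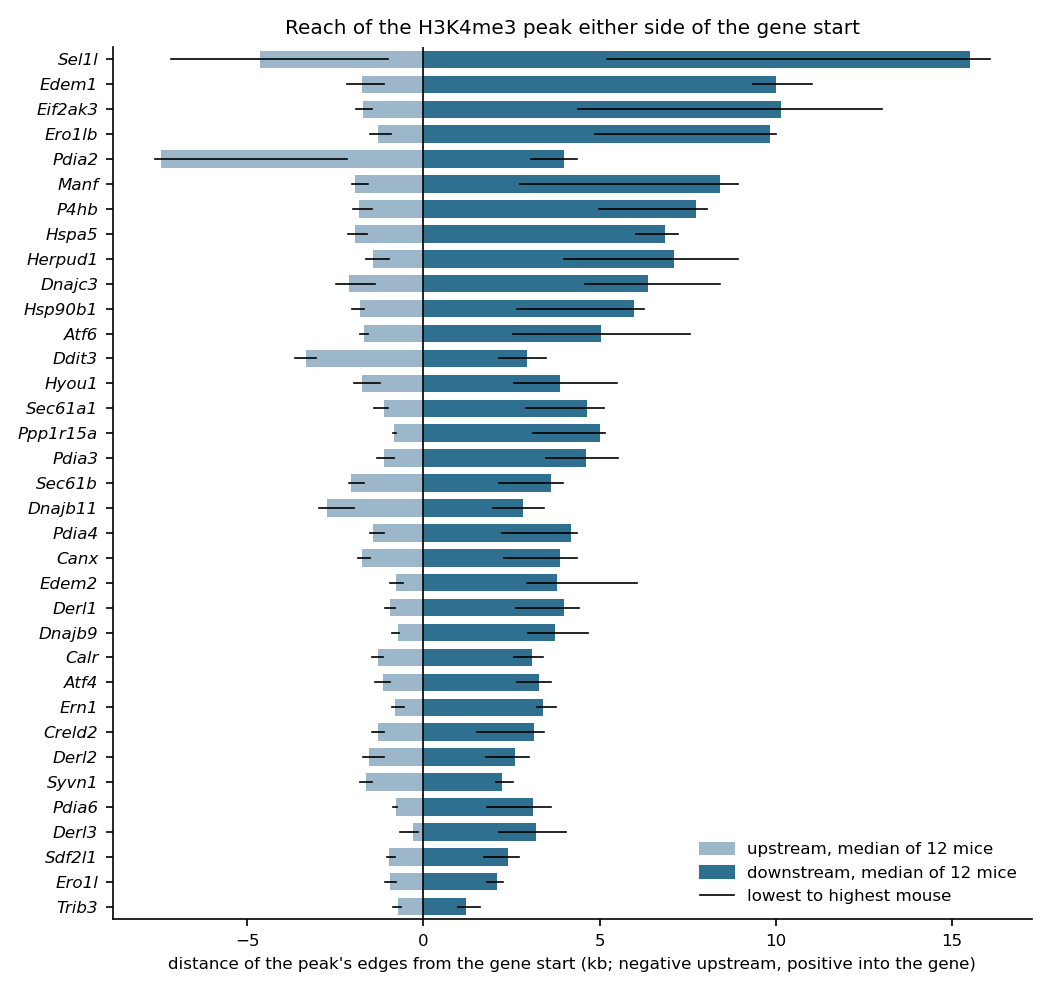
Reach of the widest H3K4me3 peak upstream (pale bars, negative) and downstream (dark bars) of the gene start in kb for each of the 35 genes, as the median of 12 mice with lines from the lowest to the highest mouse. The dark bars exceed the pale ones at all genes but Pdia2 and Ddit3, and Sel1l, Edem1, Eif2ak3 and Ero1lb have medians of 9832 bp or more into the gene.

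Several wide domains were called as a single peak in some mice and as separate peaks in others, which sets the width measured there. At Sel1l, WT mice 1 and 3, all EZ mice and KE mouse 3 had 1 peak that began 6928 to 7166 bp upstream of the gene start. KR mice 2 and 3 and KE mice 1 and 2 had the same region as 2 peaks, of which the main one began 2166 to 2340 bp upstream. KR mouse 1 had 5 peaks there and WT mouse 2 had 2. The bases covered across the Sel1l domain were 22468, 6710 and 22544 bp in WT, 22791, 23259 and 22253 bp in EZ, 16250, 21904 and 20911 bp in KR, and 20840, 20905 and 22969 bp in KE. Covered bases thus differed less between mice than the width of the widest peak, WT mouse 2 and KR mouse 1 apart. Atf6 (ENSMUSG00000026663, chr1:170704674-170867771, minus strand), whose product is cut in the Golgi to release the factor that binds the ERSE, was a single peak in 6 mice. Its widths were 9030, 4280 and 9054 bp in the WT mice, 9226, 8917 and 4554 bp in the EZ mice, 4207, 4359 and 4255 bp in the KR mice and 4545, 9313 and 8992 bp in the KE mice. They fell near 9 kb or near 4 kb with nothing between, and all 3 KR mice were low, with WT mouse 2, EZ mouse 3 and KE mouse 1. The bases covered were 9030, 6466 and 9054 bp in WT, 9226, 8917 and 8655 bp in EZ, 6631, 7754 and 7904 bp in KR, and 8223, 9313 and 8992 bp in KE. By this measure, too, all 3 KR mice lay below all KE and all EZ mice, but not below WT mouse 2. Across the main domain at the start of Eif2ak3 there was a single peak in 7 mice, leaving aside a separate short peak upstream of it in most mice. Its widths were 12702, 5850 and 12255 bp in the WT mice, 14946, 14714 and 10977 bp in the EZ mice, 7193, 11570 and 12002 bp in the KR mice and 9154, 13374 and 9691 bp in the KE mice.

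**Figure D3:**
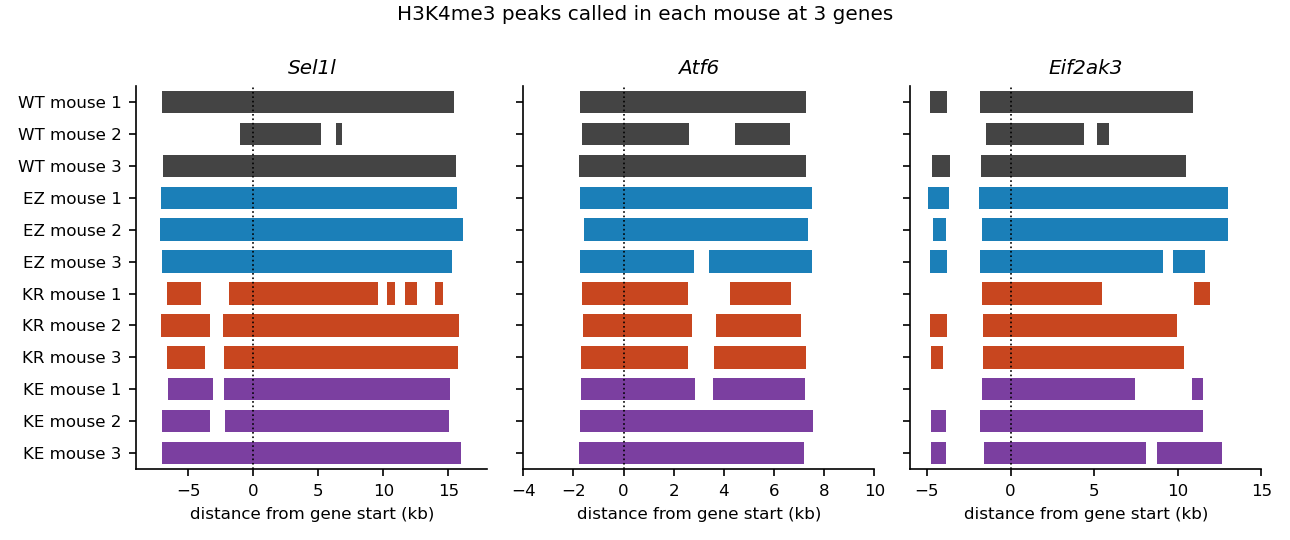
H3K4me3 peaks called in each mouse (rows, coloured by genotype) at Sel1l, Atf6 and Eif2ak3, drawn to scale by distance from the gene start in kb, with the start as a dotted line and the direction of transcription to the right. The region upstream of Sel1l joins the main peak in 6 mice and is separate or missing in the others, and the Atf6 peak is divided in all 3 KR mice, WT mouse 2, EZ mouse 3 and KE mouse 1.

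Differences between genotypes were tested with limma on log2 width, with each library centred on its median, over 12478 protein-coding genes marked in all 12 mice and with Benjamini-Hochberg adjustment over them. None of the 35 genes passed an adjusted p of 0.05 in any comparison. Over all genes, 3 were called for EZ against WT (0.024%), 10 for KR against WT (0.0801%), 0 for KE against WT (0.0%, with 815 at an unadjusted p under 0.05), 5 for KE against KR (0.0401%) and 3 for the interaction (0.024%), which asks if EZH2 deletion changed widths differently with and without the KR allele. With the replicate number as a block, KE against KR had 0 genes called. The standard error of a member's difference had a median of 0.12 on the log2 scale and reached 0.40 at Sel1l. Differences well above their standard error, such as that of Dnajc3 for EZ against WT, did not pass the adjustment over all genes either.

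With EZH2 deleted on its own, the direction was mostly upward, and the size depended on WT mouse 2 and on the measure of width. Differences for EZ against WT were above 0 at 32 of 35 genes with a median of 0.16 (log2 width), where the median of all genes was 0.01, and without WT mouse 2 at 27 of 35 with a median of 0.03. Measured as the bases covered by peaks within 3 kb of the gene start, the median with all 12 mice was 0.028, and by this measure it was 0.032 for KR against WT, 0.031 for KE against WT, 0.011 for KE against KR and -0.016 for the interaction. That window is fixed, so differences in peaks that reach beyond it are not counted there. By width of the widest peak, the largest difference was at Sel1l, 0.59 ± 0.40 (log2, SE, limma adjusted p = 0.787), which became 0.015 without WT mouse 2. Hsp90b1 differed by 0.43 ± 0.17 (limma adjusted p = 0.776), and its widths were 5256, 4486 and 7895 bp in the WT mice, 8068, 7781 and 7970 bp in the EZ mice, 7795, 7765 and 7636 bp in the KR mice and 5215, 8044 and 7920 bp in the KE mice, with the EZ mice between 7781 and 8068 bp and WT mouse 3 among them. The peak was divided in 2 in WT mouse 1 and KE mouse 1, where 6484 and 6676 bp were covered in all, still below the mice with a single peak other than WT mouse 2. Without WT mouse 2 its difference was 0.300 ± 0.175. Eif2ak3 differed by 0.42 ± 0.29 and by 0.10 without WT mouse 2. Herpud1 was 8630, 4990 and 8138 bp in the WT mice, 9877, 9331 and 9993 bp in the EZ mice, 7370, 8093 and 8356 bp in the KR mice and 8431, 10375 and 10528 bp in the KE mice, with a difference of 0.415 ± 0.152 (limma adjusted p = 0.776) and of 0.214 ± 0.095 without WT mouse 2. Dnajc3, the ER DNAJ protein p58IPK, was 8330, 5952 and 8199 bp in the WT mice, 10575, 9874 and 10051 bp in the EZ mice, 7049, 9038 and 7740 bp in the KR mice and 6714, 9656 and 9238 bp in the KE mice, with 0.407 ± 0.135 (limma adjusted p = 0.694) and 0.30 ± 0.13 without WT mouse 2. All 3 EZ mice lay above all WT mice at both genes. The Dnajc3 peak was divided in WT mouse 1, KR mouse 3 and KE mouse 1, and WT mouse 1 covered 9142 bp in all, still below the EZ mice.

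In bp, all 3 EZ mice were above all 3 WT mice at 8 of 35 genes (22.9%), namely Dnajc3, Canx, Pdia2, Ero1lb, Herpud1, Edem1, Ern1 and Trib3, where 9.4% of all genes were. The gap was small at Ero1lb, 11125 bp in the lowest EZ mouse and 11073 bp in the highest WT mouse, and at Pdia2, 11684 and 11613 bp. Without WT mouse 2 their differences were 0.027 ± 0.049 and 0.027 ± 0.082 (log2, SE). Leaving out WT mouse 2 left the same 8 genes, against 12.9% of all genes. A gene cannot drop out of this count when a WT mouse is left out, so the repeat is no check on that mouse. At none were all EZ mice below all WT mice (2.24% of all genes), and without WT mouse 2 this held for Derl3 alone (10.5% of all genes). At Canx the widths were 5317, 3861 and 5539 bp in the WT mice, 5990, 6055 and 5951 bp in the EZ mice, 3887, 6083 and 5181 bp in the KR mice and 4229, 6054 and 5936 bp in the KE mice. The 3 EZ mice lay within 5951 to 6055 bp, above WT mice 1 and 3, and some KR and KE mice reached the same widths. The peak was divided in KR mouse 1 and KE mouse 1, which covered 4547 and 4730 bp.

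For the KR mice, the direction of the median difference changed when WT mouse 2 was left out. For KR against WT, 29 of 35 genes were above 0 with a median of 0.09 (all genes 0.002), and without WT mouse 2, 14 were above and 21 below 0 with a median of -0.02. Leaving out KR mice 1, 2 or 3 gave medians of 0.173, 0.03 and 0.037, and leaving out WT mouse 1 or 3 gave 0.176 and 0.151. The largest difference was at Atf6, -0.725 ± 0.345 (log2, SE, limma adjusted p = 0.796), and -1.035 ± 0.33 without WT mouse 2 (limma adjusted p = 0.376). The peak there was divided in all 3 KR mice. Hsp90b1 differed by 0.43 ± 0.17, and by 0.309 ± 0.175 without WT mouse 2. Ero1lb differed by 0.31 ± 0.17, which became 0.05 ± 0.05 without that mouse. Pdia4, a disulfide isomerase, was 5362, 3363 and 5415 bp in the WT mice, 5647, 5191 and 5745 bp in the EZ mice, 5458, 5768 and 5311 bp in the KR mice and 5638, 5704 and 5881 bp in the KE mice, and Hyou1, the nucleotide exchange factor of BiP, was 5540, 3808 and 5170 bp in the WT mice, 5730, 5469 and 6434 bp in the EZ mice, 4577, 6326 and 6413 bp in the KR mice and 4928, 7161 and 7369 bp in the KE mice. Their differences were 0.255 ± 0.126 and 0.252 ± 0.178, and WT mouse 2 was the lowest mouse at both. The Hyou1 peak was divided in WT mouse 3 and EZ mouse 2, which covered 5799 and 6273 bp. Without WT mouse 2 the differences were 0.078 ± 0.064 and 0.138 ± 0.188.

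All 3 KR mice were above all WT mice at Derl1 and Trib3, 2 of 35 genes (5.71%), against 4.01% of all genes. Without WT mouse 2, when no gene could drop out, the count was 2 again (5.88% of all genes). Derl1 was 4823, 3608 and 4757 bp in the WT mice, 4982, 4783 and 4976 bp in the EZ mice, 4841, 5066 and 4851 bp in the KR mice and 4821, 5367 and 5119 bp in the KE mice, so that the gap between KR mouse 1 and WT mouse 1 was small. None of the 35 had all KR mice below all 3 WT mice (3.49% of all genes). Compared with WT mice 1 and 3 only, all KR mice were lower at 11 of 35 genes (31.4%), where 19.9% of all genes were. These 11 were Hspa5, Dnajb11, Manf, Creld2, Pdia2, Sel1l, Edem2, Derl2, Atf6, Ern1 and Eif2ak3. The 3 sensors among them differed in size without WT mouse 2. Atf6, divided in all 3 KR mice, was at -1.035 ± 0.33, Eif2ak3 at -0.274 ± 0.24 and Ern1 at -0.009 ± 0.063 (log2, SE). At Pdia2 the widths were 11377, 5227 and 11613 bp in the WT mice, 11732, 11749 and 11684 bp in the EZ mice, 9017, 10040 and 10530 bp in the KR mice and 11422, 11322 and 11598 bp in the KE mice, and the KR mice lay apart from all others but WT mouse 2, which was lower still.

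In KE mice, 33 of 35 genes were above WT with a median of 0.16 (log2; all genes 0.01), and 26 without WT mouse 2 with a median of 0.05. The largest difference was at Herpud1, 0.44 ± 0.15 (limma adjusted p = 0.681), and 0.242 ± 0.095 without WT mouse 2. Manf followed with 0.40 ± 0.28, then Hyou1 with 0.40 ± 0.18, Sel1l with 0.35 ± 0.40 and Pdia2 with 0.35 ± 0.22. Of these, Manf and Pdia2 became 0.02 and Sel1l turned to -0.22 without WT mouse 2, while Hyou1 was 0.28 ± 0.19. Manf was 10472, 4327 and 10498 bp in the WT mice, 10482, 10137 and 10469 bp in the EZ mice, 9953, 6676 and 10442 bp in the KR mice and 10087, 10399 and 10912 bp in the KE mice, so that WT mouse 2 and KR mouse 2 stood below all others. The peak was divided in both, in 3 and in 2, and KR mouse 2 covered 9844 bp in all, close to the 9953 bp of KR mouse 1, whereas WT mouse 2 covered 7064 bp. All KE mice were above all WT mice at Pdia4, Sec61b and Edem1, 3 of 35 genes (8.57%), against 5.07% of all genes. Without WT mouse 2, when no gene could drop out, this held at 3 of 35, against 7.76%. Sec61b, a subunit of the channel, was 5669, 3821 and 5451 bp in the WT mice, 5712, 5301 and 5944 bp in the EZ mice, 5550, 5422 and 5656 bp in the KR mice and 5691, 5810 and 6068 bp in the KE mice, so that the KE mice began just above WT mouse 1. None of the 35 had all KE mice below all WT mice, with or without WT mouse 2, where 2.93% and 12.5% of all genes did.

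The differences of KE against KR use no WT mouse, but their standard errors and p-values come from a variance pooled over all 4 genotypes. Differences were above 0 at 30 of 35 genes, with a median of 0.064 (log2; all genes 0.005), which rested on KR mouse 1. Without that mouse the median was 0.008, and with each other KE or KR mouse left out it was 0.051 to 0.097. The 5 largest were Atf6 with 0.743 ± 0.345, Herpud1 with 0.28 ± 0.15, Sel1l with 0.27 ± 0.40, Creld2 with 0.25 ± 0.19 and Manf with 0.22 ± 0.28. The limma adjusted p rounded to 1.0 at each of the 35. Without WT mouse 2 the differences were nearly the same, the standard error fell from 0.152 to 0.085 at Herpud1 and from 0.401 to 0.183 at Sel1l, and the lowest limma adjusted p were 0.558 at Herpud1, 0.676 at Pdia2 and 0.711 at Atf6, with 21 genes called over all genes in place of 5. Creld2, an ER isomerase-like protein, was 4614, 2826 and 4514 bp in the WT mice, 4391, 4576 and 4888 bp in the EZ mice, 2729, 4269 and 4329 bp in the KR mice and 4220, 4649 and 4500 bp in the KE mice, and its difference came with KR mouse 1, whose peak there was divided. In bp, all 3 KE mice were above all 3 KR mice at 7 of 35 genes, namely Hspa5, Pdia2, Sec61b, Herpud1, Edem1, Atf6 and Ern1, where 6.89% of all genes were. None of the 35 had all KE mice below all KR mice (2.32% of all genes).

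At 4 of the 35 genes, Pdia2, Herpud1, Edem1 and Ern1, all EZ mice were above all WT mice and all KE mice above all KR mice, 2 comparisons that share no mouse. This rule was chosen after their values were seen. Over all genes, 0.898% met it. Without WT mouse 2, when none of the 4 could drop out, 1.08% did with the same 4 genes. The differences were of unequal size. Pdia2 differed by 0.36 ± 0.22 (log2, SE) for EZ against WT, which became 0.03 ± 0.08 without WT mouse 2. For KE against KR it differed by 0.20 ± 0.22. Edem1 (chr6:108828641-108859356, plus strand) was 11187, 10746 and 11493 bp in the WT mice, 12385, 12773 and 11910 bp in the EZ mice, 11593, 11327 and 11386 bp in the KR mice and 12541, 12154 and 12838 bp in the KE mice. Its EZ and KE mice, at 11910 bp and above, were all wider than its WT and KR mice, at 11593 bp and below. The peak of KR mouse 2 was divided in 2 there and covered 11987 bp in all, above the 11910 bp of EZ mouse 3, so by bases covered this separation was not complete. The means were 11142 ± 376 bp in WT, 12356 ± 432 bp in EZ, 11435 ± 140 bp in KR and 12511 ± 343 bp in KE (SD, n = 3 mice each). The difference was 0.10 ± 0.06 for EZ against WT and 0.11 ± 0.06 for KE against KR (log2, SE), with limma adjusted p of 0.787 and 1.0. Without WT mouse 2 the EZ difference was 0.122 ± 0.062. Ern1 (chr11:106394650-106487852, minus strand) was 4204, 3767 and 4273 bp in the WT mice, 4416, 4421 and 4584 bp in the EZ mice, 4000, 4121 and 4116 bp in the KR mice and 4351, 4260 and 4192 bp in the KE mice, with differences of 0.085 ± 0.056 and 0.047 ± 0.056, and without WT mouse 2 the first was 0.076 ± 0.063. None of the 35 genes had an interaction that passed the test, and the median interaction was -0.10, or 0.01 without WT mouse 2, -0.179 without WT mouse 1, -0.159 without WT mouse 3 and -0.057 without KR mouse 3. The largest were Atf6 with 0.76 ± 0.49, Hsp90b1 with -0.60 ± 0.24, Trib3 with -0.38 ± 0.17, Eif2ak3 with -0.355 ± 0.405 and Dnajc3 with -0.33 ± 0.19, each with a limma adjusted p of 0.998.

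**Figure D4:**
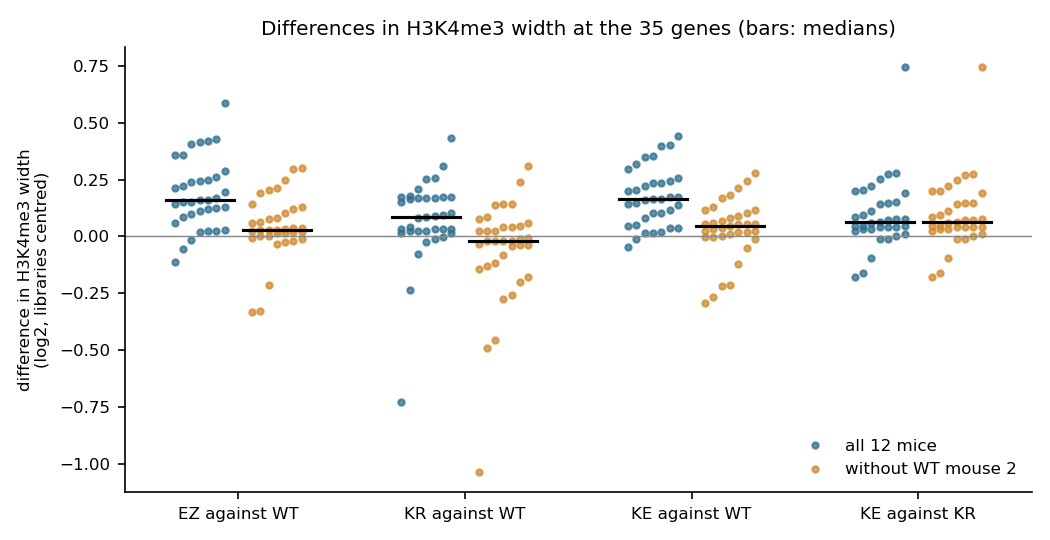
Differences in H3K4me3 width on the log2 scale at the 35 genes (points) for 4 comparisons, from all 12 mice (blue) and without WT mouse 2 (orange), with the median of the 35 as a bar. The medians of the 3 comparisons with WT move from 0.16, 0.09 and 0.16 to 0.03, -0.02 and 0.05, and KE against KR, which uses no WT mouse, is 0.06 in both but 0.008 without KR mouse 1 (not drawn).

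H3K27me3 was nearly absent from these start sites. Within 3 kb of a TSS it was found in at least 1 of 12 mice at 2 of the 35 genes, Dnajb9 and Ern1, where it was found at 35.5% of all protein-coding genes, and no genotype had it in all 3 of its mice. WT mouse 2 had it at 2 of the 35 genes, KR mice 1 and 3 at 1 each and the other mice at none. Dnajb9 (chr12:44205559-44210326, minus strand) encodes ERdj4, a BiP partner that keeps IRE1 in check. Its H3K4me3 widths were 4372, 3697 and 4328 bp in the WT mice, 5442, 4366 and 5337 bp in the EZ mice, 4200, 5260 and 4555 bp in the KR mice and 4342, 5388 and 5202 bp in the KE mice, and the genotypes overlapped. Its H3K27me3 peak lay upstream of the gene, 21228 bp wide and beginning 1110 bp from the start in WT mouse 2, 7836 bp wide and 2935 bp away in KR mouse 1, and 6557 bp wide and 2814 bp away in KR mouse 3. KE mouse 1 had a peak just outside the window, 3870 bp away. The H3K4me3 peak of Dnajb9 reached at most 899 bp upstream, so the marks lay side by side. At Ern1 the only peak was in WT mouse 2, 5001 bp wide, the smallest width the caller gave, and it began 65 bp inside the gene and overlapped the H3K4me3 peak of that mouse. Sel1l fell just outside, with an H3K27me3 peak of 11946 bp that began 3265 bp upstream in WT mouse 2, the mouse whose H3K4me3 peak reached only 995 bp upstream there.

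In the wider window used for H3K27me3 in the study, from 100 kb upstream to 3 kb downstream, 2, 21 and 3 of the 35 genes had a peak in WT mice 1, 2 and 3, 3, 3 and 5 in the EZ mice, 6, 4 and 6 in the KR mice, and 5, 4 and 5 in the KE mice. Outside WT mouse 2 this was 5.71% to 17.1% of the 35 genes, where 28.1% to 41.1% of all genes had one, and in WT mouse 2 it was 60.0%, where 54.8% did. In the mice other than WT mouse 2, the peaks lay in this window at 8 of the 35 genes, Dnajb9, Manf, Calr, Sec61a1, Edem2, Derl2, Atf6 and Trib3. Derl2 had one in all 12 mice, at 12541 to 63391 bp, Manf in 11, Calr in 10 and Edem2 in 9. Outside WT mouse 2 the nearest lay 43251 to 87938 bp from Manf, 81551 to 99862 bp from Calr and 36487 to 57581 bp from Edem2. Dnajb9 had one in 4 mice, and Trib3 and Sec61a1 in 3 mice each. In the 3 EZ mice the nearest such peak to Derl2 was 5001 to 6345 bp wide and lay 36359 to 48750 bp upstream, and the nearest in any mouse was that of WT mouse 2, at 12541 bp. At Edem2, a relative of Edem1, EZ mice 1 and 3 had one, 44388 and 44658 bp upstream.

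**Figure D5:**
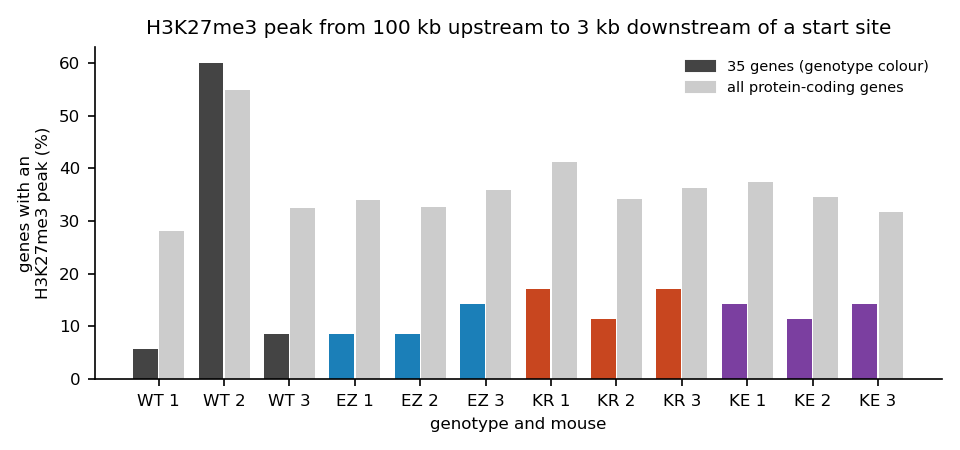
Percent of the 35 genes (coloured by genotype) and of all protein-coding genes (grey) with an H3K27me3 peak in each mouse in the window that runs from 100 kb before a TSS to 3 kb after it. The 35 genes lie below all genes in 11 mice and above them in WT mouse 2, at 60.0% against 54.8%.

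Of 78 other genes of ER folding, translocation, glycosylation, transport and degradation, 76 had H3K4me3 in all 12 mice, with a median width of 2752 to 3634 bp by mouse, narrower than the 35 genes and wider than all genes. Xbp1, which encodes the factor that IRE1 activates by splicing, had a mean of 8555 bp (5674 to 9525 bp), close to that of Hspa5. None of the 76 passed the test in either direction in any comparison, with lowest limma adjusted p of 0.403, 0.555 and 0.451 for EZ, KR and KE against WT and 0.932 for KE against KR. Their median differences were 0.07, 0.05, 0.04 and -0.001 (log2, in that order), and 0.028, 0.013, -0.002 and -0.002 without WT mouse 2. The pair without H3K4me3 in any mouse were Clgn, the testis homologue of calnexin, and Calr4, a calreticulin-like gene. Clgn had H3K27me3 within 3 kb in 10 of 12 mice, including all 3 WT and all 3 KR mice, and Calr4 had neither mark. Uggt2, a sensor of glycoprotein folding, had H3K27me3 in all 3 EZ and all 3 KR mice, and Mbtps2, the X-linked protease that releases ATF6, had it in all 3 KE mice.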

How the data were processed

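H3K4me3 and H3K27me3 ChIP-Seq peak lists of 12 mice were used, 24 lists in all, and the input samples were not analysed here. According to the methods of the study and its processing notes, reads were aligned to mm10 with bowtie2 and the authors ran FastQC and used findPeaks of HOMER, set for histone marks, on each library with input as background. Versions are not given in the sources used here. The deposited lists hold positions and a score, which the authors' files give as 1 for every peak, so that depth and signal are unknown and a shallower library could give fewer or narrower peaks. The smallest widths were 501 bp for H3K4me3 and 5001 bp for H3K27me3. H3K4me3 peaks on the standard chromosomes were compared with all TSS of GENCODE vM21.

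Python 3.11.15 with pandas 2.3.3 and numpy 2.4.6 was used for overlaps, R 4.3.3 with limma 3.58.1 for widths and matplotlib 3.10.9 for plots. Groups and mouse numbers came from the sample titles, and the second allele of the KR and KE mice and some single-gene values are not reported here. The overlap and width code was tested on simulated data. The 35 members and all gene lists were chosen with earlier results of these data known. Described in full were the members with the 5 largest absolute differences in each comparison, the 5 widest and 5 narrowest, those with H3K27me3 near a TSS and those with all mice of a genotype above all WT mice, or all KE above all KR mice. Alternatives were no centring, bases covered, the gene start alone, a looser gene filter, all annotated genes, peaks within 1 kb joined, autosomes, other windows and minimum widths (1 kb for H3K4me3, 10 kb for H3K27me3), equal numbers of the widest peaks, the replicate number as a block and each mouse left out. Same-numbered mice of KE and KR had deviations from their genotype means that correlated over genes at 0.375, 0.118 and 0.196. The other same-numbered pairs ranged from -0.528 to 0.33. The replicate number was used only in the block, an alternative setting, and the main fits were not paired. Mice with different numbers ranged from -0.496 to 0.615, the highest being WT mouse 2 with KR mouse 1, so a high correlation was not particular to a shared number. No 2 lists of a mark shared more than 0.0483% of their peaks exactly. Counts that leave out WT mouse 2 in groups that do not overlap were added after seeing the data.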

Additional observations from a re-analysis of the deposited data

How the results depend on the processing

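None of the 35 genes was called in any width comparison under any setting tried, with lowest adjusted p in limma from 0.324 to 1.0. All 35 had H3K4me3 in all 12 mice in every setting. Over all mice left out in turn, the median difference of the 35 genes ranged from 0.03 to 0.23 for EZ against WT, from -0.019 to 0.176 for KR against WT, from 0.047 to 0.24 for KE against WT, from 0.008 to 0.097 for KE against KR and from -0.179 to 0.012 for the interaction. With the other settings the ranges were 0.028 to 0.207, 0.032 to 0.098, 0.031 to 0.185, 0.011 to 0.083 and -0.134 to -0.016, the values nearest 0 coming from bases covered, where a window of fixed size limits the difference. The standard deviation of the members' median between mice of a genotype was 0.139 (log2).

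Over all genes, calls ranged from 0 to 29 for EZ against WT, 0 to 60 for KR against WT, 0 to 25 for KE against WT, 0 to 21 for KE against KR and 2 to 25 for the interaction, each highest without WT mouse 2. With the replicate number as a block, 0, 0, 0 and 0 genes were called in these 4 comparisons and 2 for the interaction, and members called stayed at 0. The block left the difference in members with H3K27me3 per mouse at -0.667 for EZ and KE against WT and for KE against KR, and at 0.0 for KR against WT. Without WT mouse 2 it was 0.0 for EZ and KE against WT and 0.667 for KR against WT. No member had H3K27me3 in all 3 mice of a genotype. Without a mouse this was 0 to 1, the 1 being Dnajb9 without KR mouse 2, and it was 1 with presence in at least 2 of 3 mice and 4 in the window from 100 kb upstream. What depth adds to these differences was not tested, since the lists carry none.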

Other observations

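The 15 genes outside the ER lists that held an ERSE in the 250 bases before their start fell into marked and unmarked genes. Only 4 of them, Acacb, Alg12, Hnrnpa3 and Pan2, had H3K4me3 in all 12 mice, with mean widths of 877, 4209, 4274 and 2405 bp, and Adcy3 had it in 11 mice with a mean of 852 bp. The others include Esp15, Esp16 and Esp36, exocrine gland secreted peptides, and Xlr3a, Xlr3b and Xlr3c, a group of near-identical X-linked genes.

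The 12 acinar marker genes had median H3K4me3 widths of 4044.5 to 11954 bp by mouse, at the 92.0th to 99.7th percentile of marked genes, and the lowest mouse was WT mouse 2.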
